A study of Homo sapiens with 4 samples.

Results

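The genes examined are 35 members of the ATF4 stress response and its amino acid supply program: the ATF4 pathway transcription factors and feedback genes, enzymes of asparagine, serine and proline synthesis, amino acid transporters, tRNA synthetases that respond to ATF4, and a few secreted or surface proteins. They were chosen by name, with earlier results of these data known, and all 35 stood among the 23228 gene symbols counted. RNA was measured in ES2 cells, an established human ovarian cancer cell line grown in RPMI medium with serum, after 12 h with 10 nM EC359 or with vehicle, which was 0.1% DMSO. EC359 is a small molecule inhibitor of LIFR, the receptor for leukemia inhibitory factor. Each treatment had 2 libraries, which the study describes as biologically independent, and the values describe 1 line at 1 dose and 1 time.

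ATF4 is a basic leucine zipper transcription factor. When eIF2alpha is phosphorylated by kinases that sense amino acid shortage, endoplasmic reticulum stress, heme shortage or double-stranded RNA, general translation slows while the ATF4 mRNA is translated more. Much of the control of ATF4 is therefore on its protein, which RNA counts do not measure. With C/EBP partners ATF4 binds the C/EBP-ATF response element and induces genes that make, import and charge amino acids onto tRNA. It also induces its own feedback: TRIB3 restrains ATF4, and PPP1R15A, also called GADD34, directs the removal of phosphate from eIF2alpha.

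Promoter windows of RefSeq (GRCh38.p14), each from 250 bases before to 50 bases after an annotated start, were searched on both strands for TGATGNAA. A window was at hand for 31 members, and 10 of them (32.3%) had the 8 letters in at least 1 window, against 4.46% of the 27305 genes with windows. By window the shares were 20.4% of 49 member windows and 3.62% of 35116 windows. The letters are a description of sequence, and binding was not measured. The 10 matches are shown because they include both members that passed the test. Each is written 5′ to 3′ on the gene's strand, with the element, or its reverse complement, in capitals.
ASNS: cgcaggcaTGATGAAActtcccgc
ATF3: ggtcaggaTGATGGAAggctgtca
CEBPG: gcggcgtcTGATGCAAcctgccgg
JDP2: gccggggcTGATGCAAcccgtccc
SLC1A5: gaagtggcTGATGCAAgctgtcca
SLC7A1: cgcactgcTGATGAAAcctggcgc
NARS: acgctctcTGATGCAAcgccggaa
AARS: tctcgcagTTGCATCAgccaagtt
CARS: ggcggcggTTGCATCAgattctag
GARS: cgcggcgaTTTCATCAtgctccga

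The element read in the direction of the gene in ASNS, ATF3, CEBPG, JDP2, SLC1A5, SLC7A1 and NARS, and on the other strand in AARS, CARS and GARS. Its first letter stood at -68 from 1 of 2 starts of ASNS (chr7:97872461-97872484, minus strand) and at -191 from 1 of 2 starts of ATF3 (chr1:212565208-212565231, plus strand). Counts per gene do not show which start was used. In NARS and SLC1A5 the positions were 15 and -97. In NARS, CEBPG, JDP2 and SLC1A5 the 8 letters were identical, and AARS and CARS hold the same 8 on the other strand. The 120 bases before the ASNS start whose window holds the element (chr7:97872409-97872528, minus strand) are given whole, since ASNS had the lowest adjusted p of all members:
ASNS promoter: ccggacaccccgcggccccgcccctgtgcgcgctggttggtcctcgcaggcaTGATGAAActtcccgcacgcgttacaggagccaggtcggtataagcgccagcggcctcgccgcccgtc

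Reads counted on genes numbered 25572494 to 25603886 in the vehicle libraries and 29914788 to 31707553 in the EC359 libraries, so depth cannot be told apart from treatment. A gene entered the test with enough counts by edgeR's filter, and 12706 genes did. TMM factors set the scale, treatments were compared by the quasi-likelihood F-test of edgeR, and a gene was called where the p adjusted by Benjamini and Hochberg's method was under 0.01. By this rule 139 genes (1.09%) were called, 38 (0.299%) higher and 101 (0.795%) lower with EC359. With total counts in place of TMM factors the split was 52 higher and 68 lower. Of the epithelial and ovarian carcinoma markers, KRT7 and KRT18 had 6304 to 8979 counts and KRT8 556 to 770. WT1 had 76 to 119 counts, PAX8 24 to 41 and KRT19 5 to 23, while EPCAM, CDH1, MUC16 and MSLN had at most 2 in any library. The mesenchymal markers VIM, CDH2, FN1 and AXL were abundant, with at least 3695 counts. The blood cell markers PTPRC, CD3E and CD14 had at most 2 counts, and among the endothelial markers CDH5 had 3118 to 3920 counts while PECAM1 and VWF had at most 2. In RNA from whole cultures, more cells with a response and more RNA per cell cannot be told apart.

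With EC359, ATF3 and ASNS rose, and the other 32 tested members did not pass the test. ATF4 itself, the proline enzyme PYCR1 and the receptor VLDLR had lower means with EC359. The transporters and tRNA synthetases all lay within 0.081 of zero on the log2 scale. Of the 34 members tested, 2 (ATF3 and ASNS) were called higher, against 0.299% of all genes, and 0 were called lower, against 0.795%. With p unadjusted and under 0.05 in the same edgeR test, 5 members were higher and 6 lower, against 10.7% and 11% of all genes (21.6% either way). Members with both EC359 libraries above both vehicle libraries numbered 11, and those with both below numbered 9, against 26.1% and 25.4% of all genes (51.5% either way). The median log2 fold change of the tested members was 0.035, against 0.0029 over all genes tested, with a range from -0.29 to 0.84. At an adjusted p under 0.05, 2 members were higher and 3 lower, against 1.68% and 2.64% of all genes (4.32% either way). The remaining member, JDP2, a repressor of the AP-1 family and close relative of ATF3, had 2 and 0 counts with vehicle and 1 and 1 with EC359, which was too few to test.

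The count of members called lower moved with the method. DESeq2 called 1 member higher (ASNS) and 2 lower (ATF4 and PYCR1), against 0.803% and 2.3% of the 7471 genes to which it gave an adjusted p (3.11% either way). With each library's trend against GC content and length removed, 3 members were called higher (ASNS, ATF3 and PPP1R15A) and 4 lower (ATF4, PYCR1, VLDLR and SHMT2), against 4.26% and 5.08% of all genes (9.34% either way). Without vehicle replicate 1 the counts were 2 and 4, against 1.03% and 1.96% (2.99% either way), and without vehicle replicate 2 they were 3 and 0, against 1.96% and 2.17% (4.13% either way). Without EC359 replicate 1 edgeR called 0 of 12879 genes, and without EC359 replicate 2 it called 2 of 12861, none of them a member.

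**Figure D1:**
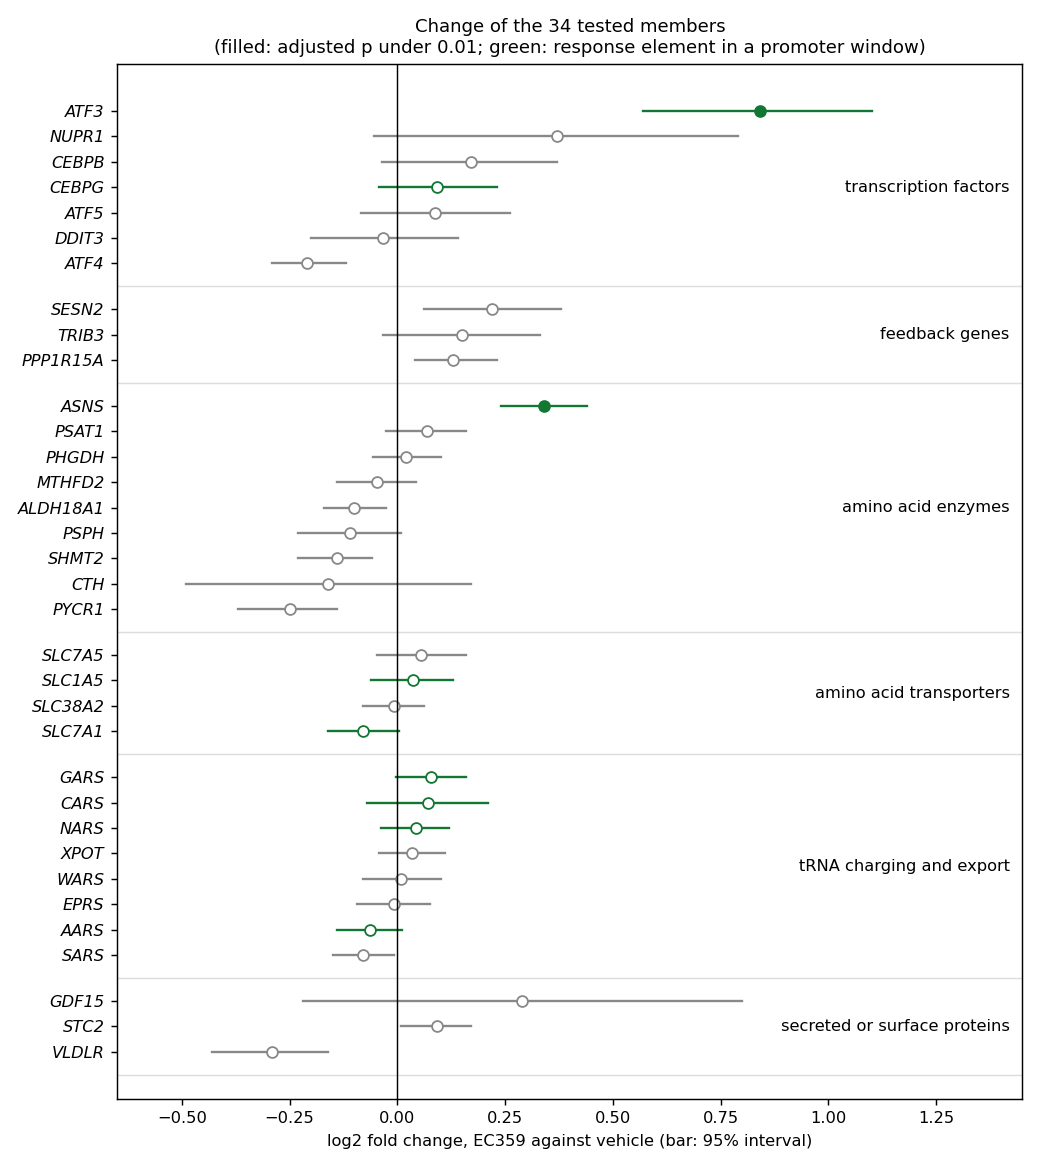
Log2 fold change of each of the 34 tested members with EC359 against vehicle (horizontal axis), by role, with 95% intervals from the quasi-likelihood fit. ATF3 and ASNS are the 2 filled points, at 0.84 and 0.34, and green marks the members with the response element in a promoter window.

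Levels of different genes are compared per kilobase of the canonical GENCODE transcript. On this scale, in normalized counts per kilobase averaged over treatments, the serine and glycine enzymes PHGDH and SHMT2 had the highest levels of the members, at 3707 and 3431. NARS, GARS and SARS followed at 3343, 3196 and 3170. ATF4, at 2833, was the most abundant of the transcription factors, above DDIT3 at 685, CEBPB at 436, ATF5 at 260 and CEBPG at 259. ATF3 was at 105. The ATF3 level per kilobase was 75.7 with vehicle and 135 with EC359, so it remained under the levels of ATF5 and CEBPG after its rise. The lowest tested members were GDF15 at 77.3, CTH at 72.4 and NUPR1 at 14, the last over a canonical transcript of 5291 bases. Reads were counted on RefSeq genes, so this length may not be that of the NUPR1 transcript counted, and its place is uncertain.

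Among the transcription factors, ATF3 rose, and ATF4 lay lower with EC359 without passing the test. ATF3, a stress-induced bZIP factor that ATF4 is known to activate, lies at chr1:212738676-212794119 in GRCh37. Its normalized counts, which put every library at 1 common effective size, were 152 and 141 with vehicle and 249 and 276 with EC359. The pairs did not overlap, and the EC359 pair lay above. The means were 147 ± 7.74 and 262 ± 19.7 (SD, n = 2 each), a 1.79-fold rise (log2 fold change 0.84, standard error 0.12, edgeR quasi-likelihood adjusted p = 0.0055). ATF3 was called in all 7 alternative fits of the 4 libraries that gave it an adjusted p, from 2.93e-07 to 0.00961. DESeq2 gave it an unadjusted p of 6.1e-05 and no adjusted p. Without EC359 replicate 1 its log2 fold change was 0.91 and its adjusted p 0.275, and without EC359 replicate 2 these were 0.76 and 0.252. In those fits edgeR called 0 and 2 genes in all, with 1460 and 1435 genes at an unadjusted p under 0.05.

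ATF4, at chr22:39915700-39918688 in GRCh37, had 4208 and 4409 normalized counts in the vehicle libraries and 3740 and 3726 in the EC359 libraries. The groups did not overlap, and the EC359 pair lay below. The means were 4308 ± 142 and 3733 ± 9.75 (SD, n = 2 each), with a log2 fold change of -0.21 (standard error 0.039, edgeR adjusted p = 0.0177), which did not pass 0.01. DESeq2 gave an adjusted p of 0.0079, and with the GC and length trends removed the log2 fold change was -0.14 with an adjusted p of 0.00131. Without vehicle replicate 1 the adjusted p was 0.00147. Of the 50-base windows of the ATF4 transcript, 32.9% also occur in transcripts of other loci, mostly the pseudogene ATF4P4, so its count may leave out reads that fit several places.

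The other factors did not pass. DDIT3, or CHOP, the pro-apoptotic factor downstream of ATF4, had 615 and 636 normalized counts with vehicle and 643 and 579 with EC359, and these overlap. Its log2 fold change was -0.033 with a 95% interval from -0.20 to 0.14. CEBPB, a C/EBP partner, had a log2 fold change of 0.17 (interval -0.036 to 0.37) and CEBPG, the partner that heterodimerizes with ATF4, 0.092 (interval -0.042 to 0.23). ATF5, which like ATF4 is controlled at translation, had 0.086 (interval -0.085 to 0.26). NUPR1, a small stress-induced chromatin protein, had 58.9 and 70.1 normalized counts with vehicle and 76.9 and 89.6 with EC359, with a log2 fold change of 0.37 (interval -0.054 to 0.79). The strand setting of the counting was not stated. Of the DDIT3 exons 27.2% overlap MARS1 on the opposite strand, and of the ATF5 exons 19.5% overlap NUP62, so the values of both are uncertain.

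**Figure D2:**
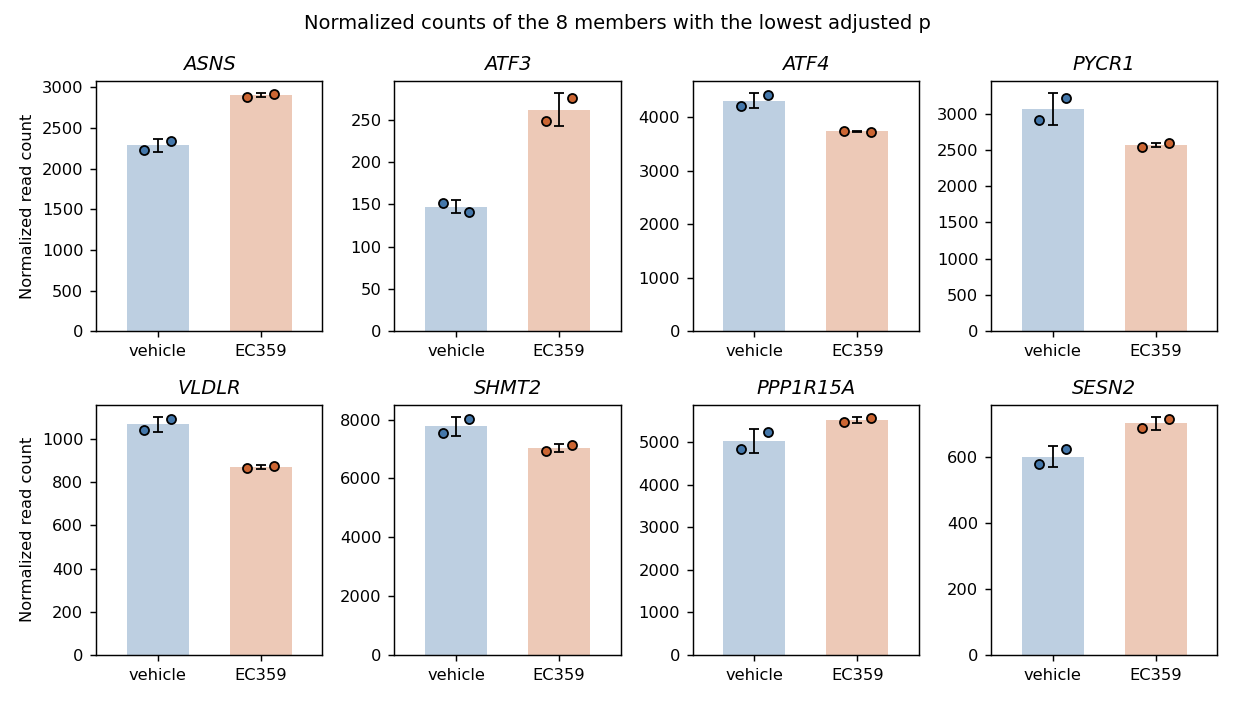
Normalized read counts (vertical axis, from 0, with its own scale in each panel) of the 8 members with the lowest adjusted p. Bars are means, error bars SD of 2 libraries, and points single libraries. In all 8 panels the EC359 points lie to one side of the vehicle points, above them for ASNS, ATF3, PPP1R15A and SESN2 and below them for the others. The panels were picked by p, so such separation comes largely with the choice, and 51.5% of all genes tested separated in either direction.

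The feedback genes had higher means with EC359, and none of the 3 passed the adjusted test. In the same edgeR test 2 had an unadjusted p under 0.05, against 21.6% of all genes either way and 10.7% higher. SESN2 encodes sestrin 2, a leucine sensor that restrains mTORC1, and lies at chr1:28586029-28609002 in GRCh37. It had 579 and 623 normalized counts with vehicle and 687 and 716 with EC359, and the EC359 pair lay above. The log2 fold change was 0.22 (standard error 0.072, edgeR adjusted p = 0.108). PPP1R15A, at chr19:49375469-49379316 in GRCh37, had 4841 and 5240 normalized counts with vehicle and 5477 and 5584 with EC359, again without overlap. Its log2 fold change was 0.13 (standard error 0.042, edgeR adjusted p = 0.101). Without vehicle replicate 1 the log2 fold change was 0.079, and without vehicle replicate 2 it was 0.19 with an adjusted p of 0.00602. With the GC and length trends removed PPP1R15A was at 0.15 with an adjusted p of 0.000192. TRIB3 had 1442 and 1700 normalized counts with vehicle and 1636 and 1843 with EC359. The TRIB3 libraries overlap, and the log2 fold change was 0.15 with an interval from -0.033 to 0.33.

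Of the 9 enzymes, 1 rose and none passed the test downward. ASNS, which makes asparagine from aspartate and glutamine, rose. It lies at chr7:97480989-97501854 in GRCh37 and had 2234 and 2347 normalized counts with vehicle and 2887 and 2925 with EC359. The EC359 pair lay above, and the gap between the groups was larger than the gap within either. The means were 2290 ± 79.7 and 2906 ± 26.6 (SD, n = 2 each), a 1.27-fold rise (log2 fold change 0.34, standard error 0.044, edgeR quasi-likelihood adjusted p = 0.00334). ASNS was called in all 8 alternative fits of the 4 libraries, with adjusted p from 6.64e-09 to 0.0074. Without EC359 replicate 1 or 2 the log2 fold change was 0.35 or 0.33 and the adjusted p 0.275 or 0.249. Of its 50-base windows 5.44% occur at other loci.

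The proline branch lay the other way without passing. PYCR1, which catalyses the last step to proline in mitochondria, lies at chr17:79890260-79900288 in GRCh37. It had 2906 and 3220 normalized counts with vehicle and 2545 and 2591 with EC359, and the EC359 pair lay below. The log2 fold change was -0.25 (standard error 0.052, edgeR adjusted p = 0.0244). DESeq2 gave 0.00702. Without vehicle replicate 1 the log2 fold change was -0.33 with an adjusted p of 0.000221, and without vehicle replicate 2 it was -0.18 with 0.0251. ALDH18A1, which makes the precursor of proline from glutamate, had 9177 and 9033 normalized counts with vehicle and 8607 and 8410 with EC359, below without overlap, with a log2 fold change of -0.10 (standard error 0.033, edgeR adjusted p = 0.114). PYCR1 shares 14.1% of its exons with MYADML2 on the same strand.

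In the serine and glycine route, PHGDH, PSAT1 and PSPH catalyse the successive steps from a glycolytic intermediate to serine, SHMT2 turns serine into glycine in mitochondria, and MTHFD2 passes on the carbon unit. SHMT2, at chr12:57623356-57628718 in GRCh37, had 7538 and 8003 normalized counts with vehicle and 6938 and 7127 with EC359, below without overlap. Its log2 fold change was -0.14 (standard error 0.038, edgeR adjusted p = 0.0624). Without vehicle replicate 1 the adjusted p was 0.00469. PHGDH had a log2 fold change of 0.02 with a 95% interval from -0.056 to 0.10, PSAT1 0.068 (interval -0.026 to 0.16), PSPH -0.11 (interval -0.23 to 0.0087) and MTHFD2 -0.047 (interval -0.14 to 0.043). The interval of ASNS, 0.24 to 0.44, does not overlap any of these 5, but ASNS is the member with the lowest adjusted p. Differences between members were not tested. MTHFD2 shares 11.6% of its exons with SLC4A5 on the opposite strand, which makes its value uncertain too. CTH, which makes cysteine from cystathionine, had 144 and 175 normalized counts with vehicle and 132 and 154 with EC359, and a log2 fold change of -0.16 with a wide interval from -0.49 to 0.17.

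None of the 4 amino acid transporters passed the test or had an unadjusted p under 0.05, a level that 21.6% of all genes reached. SLC38A2, or SNAT2, a sodium-coupled importer of neutral amino acids that amino acid shortage is known to induce, had 14506 and 14196 normalized counts with vehicle and 14482 and 14045 with EC359. These overlap, and the log2 fold change was -0.0088 with an interval from -0.079 to 0.062, and 0.015 with total counts only. SLC7A5, the LAT1 exchanger of large neutral amino acids, had 0.055 (interval -0.047 to 0.16) and SLC1A5, the ASCT2 glutamine transporter, 0.036 (interval -0.061 to 0.13). SLC7A1, the cationic transporter CAT1, had 4474 and 4367 normalized counts with vehicle and 4125 and 4238 with EC359, below without overlap, with a log2 fold change of -0.08 (interval -0.16 to 0.0027).

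The 7 cytosolic tRNA synthetases, which join amino acids to their tRNAs, had log2 fold changes from -0.081 to 0.078 with a median of 0.0091. Of these, 0 were called by edgeR. At an unadjusted p under 0.05, 0 were higher and 1 lower, against 10.7% and 11% of all genes. SARS, the serine enzyme, was the one lower at that level, with 6198 and 6278 normalized counts with vehicle and 5907 and 5888 with EC359 (log2 fold change -0.081, edgeR adjusted p = 0.193). GARS, the glycine enzyme, was at the other end with 0.078 (interval -0.0026 to 0.16). AARS, for alanine, was at -0.064, EPRS, for glutamate and proline, at -0.0088 with TMM factors and 0.015 with total counts only, WARS, for tryptophan, at 0.0091, NARS, for asparagine, at 0.044 and CARS, for cysteine, at 0.07. WARS shares 4.52% of its exons with WDR25 on the opposite strand, so its value is likewise uncertain. The upper end of every one of these 7 intervals was at most 0.21 and the lower end at least -0.15. XPOT, which exports tRNA from the nucleus, had 0.034 (interval -0.042 to 0.11). NARS and ASNS bear on the same amino acid and both hold the element. Their intervals, -0.038 to 0.12 and 0.24 to 0.44, do not overlap, but ASNS is the member with the lowest adjusted p. The difference between these genes was not tested.

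Of the secreted or surface proteins, VLDLR, a lipoprotein receptor that ATF4 is known to induce under stress, had lower values with EC359. It lies at chr9:2621182-2660056 in GRCh37 and had 1043 and 1094 normalized counts with vehicle and 865 and 877 with EC359, without overlap. The log2 fold change was -0.29 (standard error 0.061, edgeR adjusted p = 0.0254), and without vehicle replicate 1 it was -0.33 with an adjusted p of 0.00742. STC2, the secreted glycoprotein stanniocalcin 2, had 4370 and 4256 normalized counts with vehicle and 4536 and 4655 with EC359, above without overlap, with a log2 fold change of 0.091 (interval 0.0091 to 0.17, edgeR adjusted p = 0.188). GDF15, a secreted stress cytokine, had 64.5 and 102 normalized counts with vehicle and 87.6 and 117 with EC359. These overlap, and the interval of its log2 fold change ran from -0.22 to 0.80.

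Members that hold the element in a promoter window lay on both sides of zero. Of the 9 that were tested, 7 had a log2 fold change above zero and 2 below. The 9 had a median of 0.07 and a range from -0.08 to 0.84. Intervals of the 2 below, SLC7A1 (-0.16 to 0.0027) and AARS (-0.14 to 0.011), include zero, as do those of NARS and SLC1A5 above it. At an unadjusted p under 0.05 in the edgeR test, 2 of the 9 were higher and 0 lower, against 10.7% and 11% of all genes. Among the 21 tested members with windows but without these letters, 12 were above and 9 below, with a median of 0.02. Of these 21, 3 were higher and 4 lower at that level. Elements outside the windows were not searched for. Both called members hold it, and so do NARS, SLC1A5 and AARS, which were at 0.044, 0.036 and -0.064.

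The rest of the pathway was read from 7 companion lists with 127 genes, of which 117 were tested. In them 3 genes were called higher and 0 lower by edgeR, against 0.299% and 0.795% of all genes. At an unadjusted p under 0.05, 13 were higher and 19 lower, against 10.7% and 11% of all genes. The median log2 fold change was -0.013. Among 16 tested genes of the eIF2alpha kinases, its phosphatase and eIF2B, 0 were called, with 2 higher and 2 lower on the unadjusted p. Closest to the threshold were EIF2B2, a subunit of the exchange factor eIF2B (log2 fold change -0.19, edgeR adjusted p = 0.0524), and DNAJC3, an inhibitor of eIF2alpha kinases (0.19, edgeR adjusted p = 0.0544). Of 13 tested genes of the related ATF, CREB, C/EBP and TRIB families, 0 were called, with 1 higher and 3 lower unadjusted, and ATF6B and NFE2L1 had log2 fold changes of -0.16 and -0.11.

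Among 13 tested genes of a further list that ATF4 or DDIT3 is known to induce, 1 was called higher and 0 lower, with a median of -0.016. Each gene stands in 1 list only, so this list does not cover every gene that ATF4 induces. Importers such as SLC7A11 are counted with the other amino acid transporters. At an unadjusted p under 0.05, 4 were higher and 3 lower, against 10.7% and 11% of all genes. SQSTM1, the autophagy receptor p62, had 7000 and 7279 normalized counts with vehicle and 8262 and 8863 with EC359 (log2 fold change 0.26, standard error 0.041, edgeR adjusted p = 0.00776). With no filter on low counts its adjusted p was 0.0155. FAM129A, also called NIBAN1, had 418 and 409 with vehicle and 531 and 563 with EC359, above without overlap (log2 fold change 0.40, edgeR adjusted p = 0.0203).

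The other cytosolic tRNA synthetases and their cofactors had a median of -0.024 over 16 genes, with 0 called by edgeR. At an unadjusted p under 0.05, 0 were higher and 4 lower, against 10.7% and 11% of all genes. DARS, the aspartate enzyme, had 6168 and 6022 normalized counts with vehicle and 5324 and 5238 with EC359 (log2 fold change -0.21, edgeR adjusted p = 0.0108). DESeq2 called DARS lower, with an adjusted p of 0.00174, and so did edgeR without vehicle replicate 1 (0.00566), without vehicle replicate 2 (0.000604) and with the GC and length trends removed (1.02e-07). QARS, the glutamine enzyme, had a log2 fold change of -0.14. The 17 mitochondrial tRNA synthetases had a median of -0.016, with 0 called and 0 higher and 2 lower unadjusted, and VARS2, the valine enzyme, had a log2 fold change of -0.18. Over the further enzymes of folate and amino acid metabolism the median was -0.00026 over 24 tested genes, with 1 called higher and 0 lower, and 1 higher and 2 lower unadjusted. Here TYMS, thymidylate synthase, rose from 12357 and 12163 normalized counts to 14754 and 14366 (log2 fold change 0.25, standard error 0.031, edgeR adjusted p = 0.00327), and MTHFD1L, which makes formate in mitochondria, had -0.18. TYMS is also a gene of DNA synthesis.

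The other amino acid transporters had log2 fold changes from -0.55 to 0.43 over 18 tested genes. This range covers more genes than the 4 members, some with few counts, and the spreads were not compared by a test. In this list 1 gene was called higher and 0 lower. At an unadjusted p under 0.05, 5 were higher and 3 lower, against 10.7% and 11% of all genes. SLC7A11, the cystine importer, rose, with 777 and 750 normalized counts with vehicle and 1020 and 1042 with EC359 (log2 fold change 0.43, standard error 0.062, edgeR adjusted p = 0.0055). With no filter its adjusted p was 0.0107. SLC1A1, an importer of glutamate and cysteine, had 266 and 265 with vehicle and 188 and 174 with EC359 (log2 fold change -0.55, standard error 0.11, edgeR adjusted p = 0.0217). The EC359 pair lay below the vehicle pair for SLC1A1 and above it for SLC7A11. Without EC359 replicate 1 or 2, SQSTM1, TYMS and SLC7A11 were no longer called, with edgeR adjusted p from 0.242 to 0.309. Their log2 fold changes in those fits were 0.31 and 0.21 for SQSTM1, 0.23 and 0.27 for TYMS, and 0.45 and 0.42 for SLC7A11.

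**Figure D3:**
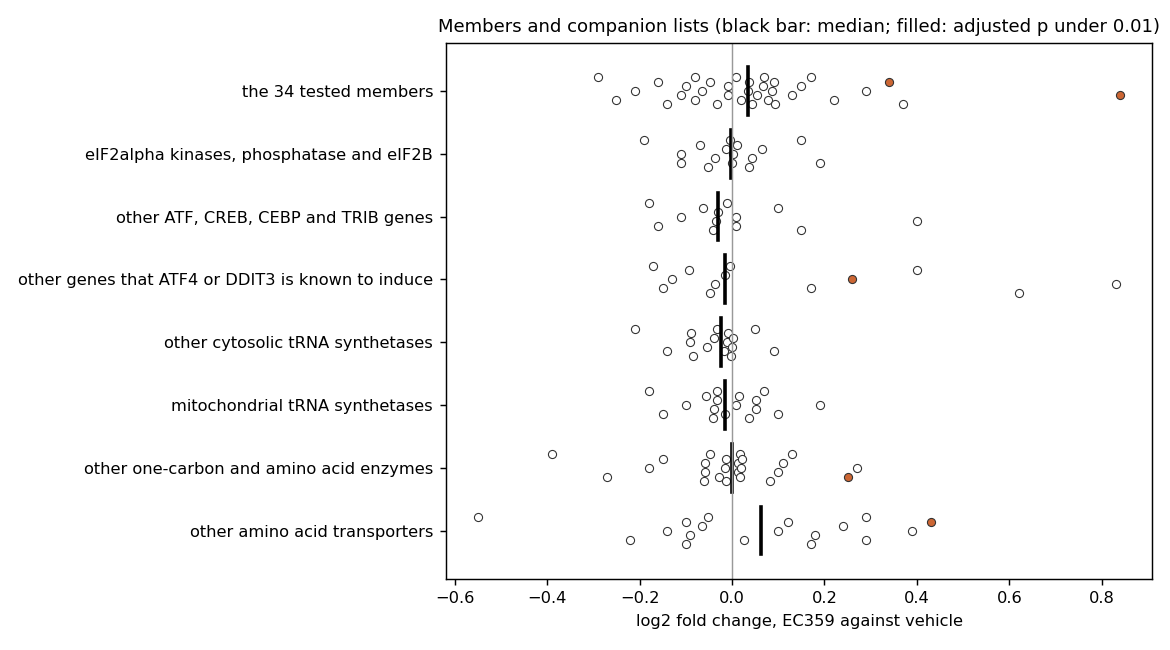
Log2 fold change with EC359 against vehicle (horizontal axis) of each tested gene, for the members and the 7 companion lists. Points are genes, filled where the adjusted p was under 0.01, and black bars are medians, which run from -0.031 to 0.064 over all 8 rows.

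**Figure D4:**
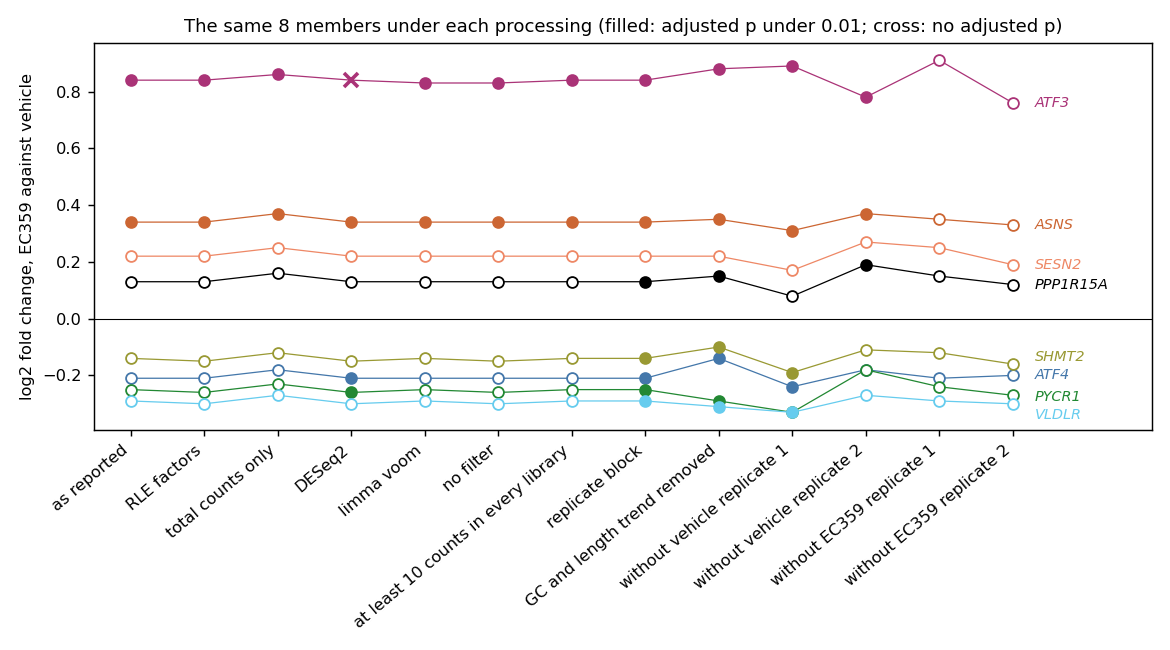
Log2 fold change (vertical axis) of the 8 members with the lowest adjusted p under each way of processing (horizontal axis), filled where the adjusted p was under 0.01 and crossed where none was given. No line crosses zero, ATF3 stays between 0.76 and 0.91, and no point is filled in the 2 fits without an EC359 library.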

How the data were processed

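RNA from ES2 cells with vehicle or EC359 was measured in 2 libraries each, grouped by the labels. Alignment by the authors was to hg19 of UCSC, with TopHat2 2.0.8b. The deposited files hold whole-number read counts for each RefSeq gene symbol, made by the authors with HTSeq. The strand setting is not given in the sources used here. The 5 summary rows that name no gene were kept out (reads on no gene were 10.9% to 12% of reads with 1 alignment, and ambiguous reads 0.852% to 0.879%). Replicates differed by more than sampling noise (chi-square per degree of freedom 3.69 and 2.65).

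Counts were filtered with filterByExpr (minimum count 10, minimum total 15), scaled with TMM and tested with edgeR 4.0.16 in R 4.3.3. The coefficient of variation between replicates was 3.5%. Intervals of fold changes are 95% intervals with the fit's moderated degrees of freedom. Counts for EC359 against vehicle were simulated with 1 common dispersion for all genes. Over 12633 and 12628 genes, the test recovered 46% and 80.5% of 200 genes changed by 0.3 and 0.5 on the log2 scale. These shares do not describe single members with larger standard errors, such as GDF15 (0.23). Positions and lengths come from GENCODE lifted to GRCh37, the assembly of hg19, which matched 91.8% of symbols and all 35 members, 7 of them by older symbols. Promoter windows come from RefSeq on GRCh38.p14, and NUPR1, PYCR1, PSPH and SHMT2 were not among them.

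Full values are given for the 8 members with the lowest adjusted p, and from each companion list for called genes and the 2 with the lowest adjusted p, apart from some genes that are not reported here. The members and lists were chosen with earlier results of these data known. Alternatives were RLE factors, total counts, DESeq2 1.42.0, limma voom (limma 3.58.1), 2 other filters, an adjusted p under 0.05, a replicate block, removal of GC and length trends, and leaving out each library.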

Additional observations from a re-analysis of the deposited data

How the results depend on the processing

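At an adjusted p under 0.01, 139 genes (38 higher, 101 lower) became 232 (60 and 172) with DESeq2, 61 (17 and 44) with no filter, 1187 (541 and 646) with GC and length trends removed, and 549 (213 and 336) at an adjusted p under 0.05. With 1 library left out there were 0 to 539 (0 to 256 higher, 0 to 283 lower). A lone library is then assumed to vary like the other treatment. Members called higher were 2, and 1 with DESeq2, which gave ATF3 no adjusted p, and 0 to 3 with 1 library left out, the 0 being for either EC359 library. Members called lower were 0, but 2 with DESeq2 (PYCR1 and ATF4), 4 with GC and length trends removed (PYCR1, VLDLR, ATF4 and SHMT2), 3 at an adjusted p under 0.05, and 0 to 4 with 1 library left out. Calls in the companion lists were 3, and 1 with no filter, 20 with the trends removed, 8 at an adjusted p under 0.05 and 0 to 6 with 1 library left out. Of all genes tested, 1.09% were called either way in the main test. That share was 0.367% with no filter, 9.34% with the trends removed and 4.32% at an adjusted p under 0.05. The members' median of 0.035 was 0.059 with total counts, where the median of all genes was 0.027, and 0.014 to 0.034 with 1 library left out.

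Directions turned in 9 members, none of them called in any fit. With the trends removed DDIT3 was 0.04, and with total counts SLC38A2 and EPRS were 0.015. With 1 library left out, log2 fold changes ran from -0.11 to 0.04 for DDIT3, -0.006 to 0.042 for PHGDH, -0.011 to 0.12 for SLC7A5, -0.031 to 0.013 for SLC38A2, -0.0093 to 0.081 for SLC1A5, -0.018 to 0.036 for WARS, -0.00027 to 0.086 for NARS, -0.049 to 0.03 for EPRS and -0.0057 to 0.65 for GDF15. Apart from fewer samples or genes tested, the cause of these changes was not tested.

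Vehicle and EC359 libraries carry the same numbers, but no label or method says that a replicate number marks a batch. Across genes the differences between replicates 1 and 2 correlated at 0.112 between treatments. A replicate block called 1539 genes (692 higher, 847 lower), with 3 members higher and 5 lower, against 5.45% and 6.67% of all genes. It called 22 companion genes, against 12.1% of all genes either way.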
